A study of Mus musculus with 11 samples.

Results

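Imprinted genes are transcribed mainly or only from the copy inherited from the mother or from the copy inherited from the father. A list of 39 mouse imprinted genes was followed across all 11 arrays of a reprogramming study. It holds 21 genes that are known to be expressed from the paternal copy, 16 from the maternal copy, and Grb10 and Gnas, whose expressed copy depends on the tissue or the transcript. For 34 of the 39 genes the platform annotation gives at least 1 probe set with a single gene symbol, and where a gene has several the probe set with the highest mean over the arrays was used. H19, Mirg, Rtl1 and Snrpn are covered only by probe sets annotated to several genes, and Zrsr1 was matched to no probe set. These 5 genes have no level of their own here. The 34 measured genes are among 22180 genes named on the array.

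Poised (CD49d+ or CD73+) and non-poised (CD73-) cells were sorted, each population with a double sort, on day 6 and day 9 of reprogramming. The starting cells were passage 4 mouse embryonic fibroblasts heterozygous for Rosa-rtTA, the activator that switches on tetO promoters when doxycycline is present. All reprogramming cultures were infected with viruses that carry Klf4, Oct4, Myc and Sox2 under tetO promoters, and day 0 was the day of doxycycline addition. CD73 is the surface enzyme encoded by Nt5e and CD49d the integrin subunit encoded by Itga4. Unsorted (total) cells of the same days were measured too. The controls were SC4, a single partially reprogrammed line at passage 10, V6.5 mouse embryonic stem cells (ESC) at passage 11, and uninfected passage 4 fibroblasts (MEF) of the Rosa-rtTA +/- genotype. Each group had 1 array and no replicate. No parent-of-origin information is held in an array intensity, so every value below is the sum of both alleles.

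Imprinting rests on DNA methylation that is laid down in only 1 of the germ lines at imprinting control regions and is kept through the cell divisions of the embryo. In blastocyst-derived stem cells and in the embryo, the zinc finger protein ZFP57 binds the methylated letters TGCCGC and recruits TRIM28, which keeps the mark in place. Most imprinted genes lie in clusters in which a long non-coding RNA, such as Kcnq1ot1 or Airn, or an insulator bound by CTCF sets the expression of several neighbours. Many of them act on growth of the fetus and placenta. Igf2 is a fetal growth factor, Igf2r encodes the receptor that clears it, and Cdkn1c and Grb10 restrain growth. Imprinted genes are often followed in stem cell lines because their marks can be lost in culture or during reprogramming.

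The deposited values are linear intensities with a lower limit of 100, at which 52.14% to 54.31% of the probe sets of an array lay. A value of 100 is therefore an upper bound of the level. Of the 34 measured imprinted genes, Kcnq1, Asb4, Usp29, Magel2 and Dio3 lay at this floor on all 11 arrays. The only Meg3 probe set with a single symbol lay at the floor on every array but MEF, where its intensity was 119, while probe sets annotated to Meg3 and a miRNA gene together were brighter and were assigned to no gene. The other 28 genes were above the floor on at least 1 reprogramming array. The sort markers followed the sort, with summed Nt5e and Itga4 intensities of 4292 to 4864 on the 4 poised arrays against 485 and 462 on the CD73- arrays. All 12 fibroblast markers were above the floor in MEF and all 11 measured stem cell markers were above it in ESC. Values of a population are summed over its cells, so fewer cells of a type and less RNA per cell cannot be told apart.

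**Figure D1:**
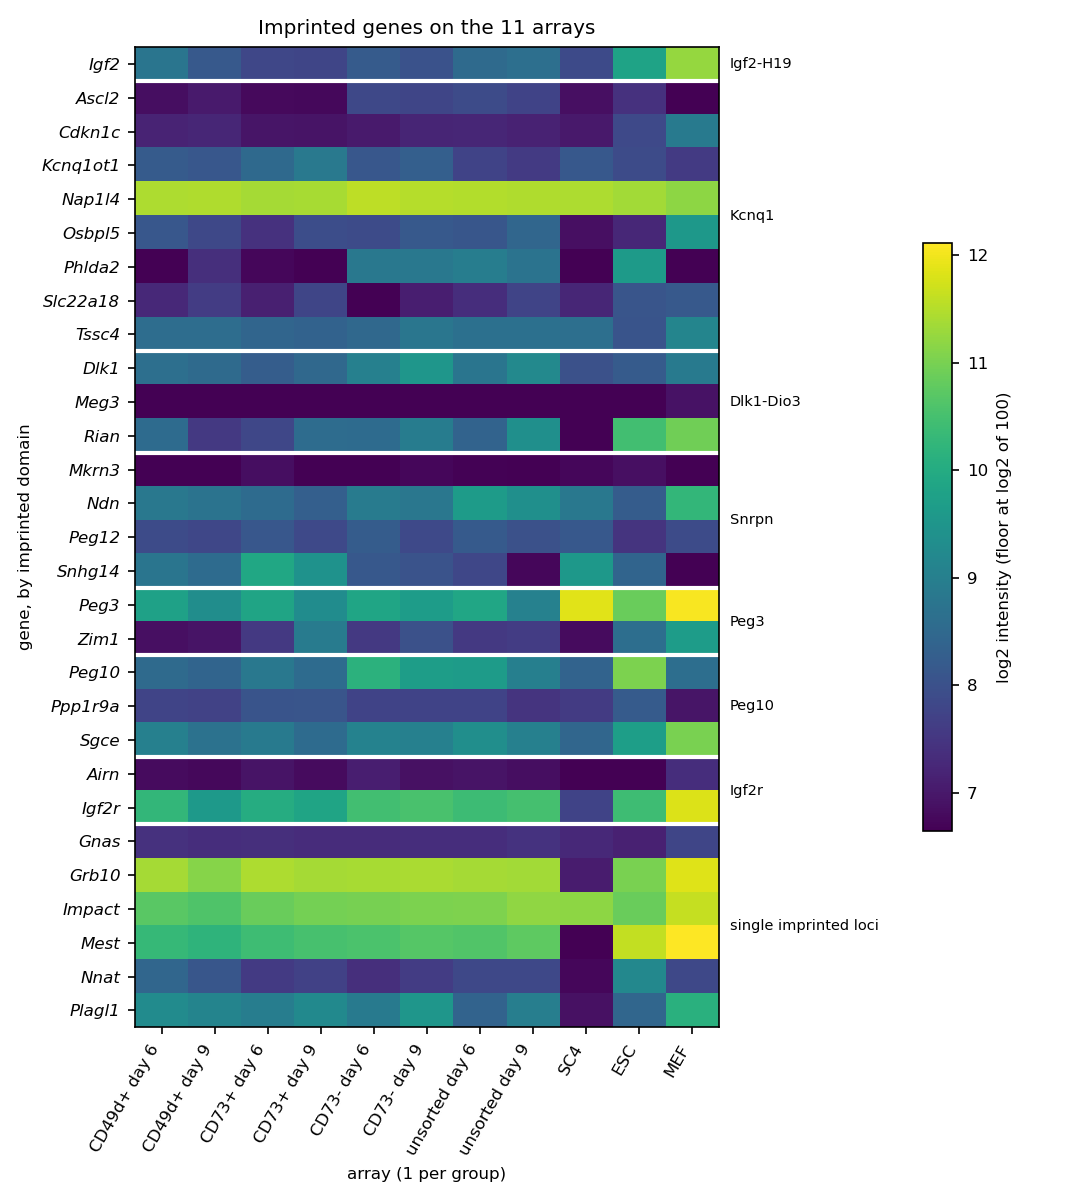
Intensity of the imprinted genes above the floor on at least 1 of the 11 arrays, as a colour scale of log2 intensity. Rows are genes grouped by imprinted cluster and columns are the arrays, with 1 array each. The SC4 column is dark (low) for Mest, Rian, Grb10, Igf2r and Plagl1, and Phlda2 separates the CD73- and unsorted columns from the 4 poised columns.

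The first comparison set the cells in reprogramming against the fibroblasts they came from. The growth factor Igf2, the receptor Igf2r, the cyclin-dependent kinase inhibitor Cdkn1c, Peg3, Mest, Sgce, Osbpl5 and the non-coding RNA Rian were each at least 2-fold lower than in MEF on all 8 reprogramming arrays. These were 8 of the 29 imprinted genes above the floor (27.6%), against 5.78% of all 14301 genes above the floor. No imprinted gene was at least 2-fold higher on every reprogramming array, where 4.89% of all genes were. The median over the 29 genes of the reprogramming level minus the MEF level was -0.49 on the log2 scale, against 0 for all genes. With 1 MEF array these differences have no test.

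Of the 8 genes Igf2 lay furthest below MEF by its median over the reprogramming arrays, at 8.32-fold. Its intensity on the reprogramming arrays had a lowest value of 222, a median of 293 and a highest value of 435, against 2436 in MEF. Each reprogramming array was thus between 5.61-fold and 11.0-fold lower than MEF, and no array came near the fibroblast level. Igf2r, which carries Igf2 to the lysosome, ran from 771 through a median of 1287 to 1499 on the reprogramming arrays, against 3629 in MEF. Cdkn1c, the inhibitor p57Kip2, lay in a narrow band of 123 to 151 with a median of 145, against 472 in MEF. Igf2 and Cdkn1c lie on the same chromosome but belong to separate control regions, the Igf2-H19 and Kcnq1 clusters.

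Peg3, a zinc finger protein expressed from the paternal copy, ran from 530.5 through a median of 842 to 946 on the reprogramming arrays, against 4290.4 in MEF. That is 4.53-fold to 8.09-fold lower. Zim1, the maternally expressed zinc finger gene beside Peg3, was at least 2-fold lower than MEF on 7 of the 8 reprogramming arrays. Its exception was CD73+ at day 9, with an intensity of 483, against 818 in MEF and 117 to 258 on the other 7 arrays. Both genes of the pair were thus below MEF on every reprogramming array, and without the CD73+ day 9 array the count of genes lower on every array was 9.

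Mest, an alpha/beta hydrolase family gene expressed from the paternal copy in mesoderm, ran from 1171 through 1495 to 1738 on the reprogramming arrays, against 4435 in MEF, which is 2.55-fold to 3.79-fold lower. Sgce, the epsilon subunit of the sarcoglycan complex, ran from 377 through 520.0 to 653, against 2071 in MEF. Osbpl5, an oxysterol-binding protein relative in the Kcnq1 cluster, ran from 172 through 261 to 351, against 759 in MEF. None of the 3 genes had a reprogramming array that reached the MEF value.

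Several more genes fell short of the 2-fold mark on some arrays. Ndn (necdin, a growth suppressor known from neurons) was at least 2-fold lower than MEF on 6 of 8 arrays, with 314 to 804 on the reprogramming arrays against 1234 in MEF. The 2 exceptions were the unsorted arrays. Plagl1, a zinc finger transcription factor, was at least 2-fold lower on 4 of 8 arrays, with 334 to 731 against 1108 in MEF. Snhg14, the long host transcript of the small nucleolar RNAs of the Snrpn cluster, was higher than in MEF. It was at the floor in MEF and between 107 and 958 on the reprogramming arrays, at least 2-fold higher on 7 of 8, the unsorted day 9 array with 107 being the exception. Phlda2 and Ascl2, both at the floor in MEF, were at least 2-fold higher on 4 of the 8 arrays, Peg10 on 3, Ppp1r9a on 2 and Kcnq1ot1 on 1.

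Another set of genes stayed closer to the fibroblast level. Nap1l4, a histone chaperone at the edge of the Kcnq1 cluster, ran from 2680 to 3041 on the reprogramming arrays, against 2316 in MEF. Grb10, an adaptor that dampens insulin receptor signalling, ran from 2220 to 2762, against 3666 in MEF. Impact, a regulator of the kinase GCN2, ran from 1566 to 2346, against 3161 in MEF. Tssc4 ran from 329 to 443 (MEF 562), Peg12 from 224 to 301 (MEF 238), Gnas from 161 to 174 (MEF 222) and Airn from 108 to 137 (MEF 164). Gnas and Airn were dim, close to the floor, which limits their comparison with MEF. A further probe set, annotated to Gnas and Gnasas1 and assigned to no gene, had 119 to 165 on the reprogramming arrays and lay at the floor in MEF. Ppp1r9a, which encodes the actin-binding protein neurabin, ran from 176 to 272, against 124 in MEF, and had 195 in SC4 and 295 in ESC. Mkrn3 did not exceed 116 on any of the 11 arrays.

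**Figure D2:**
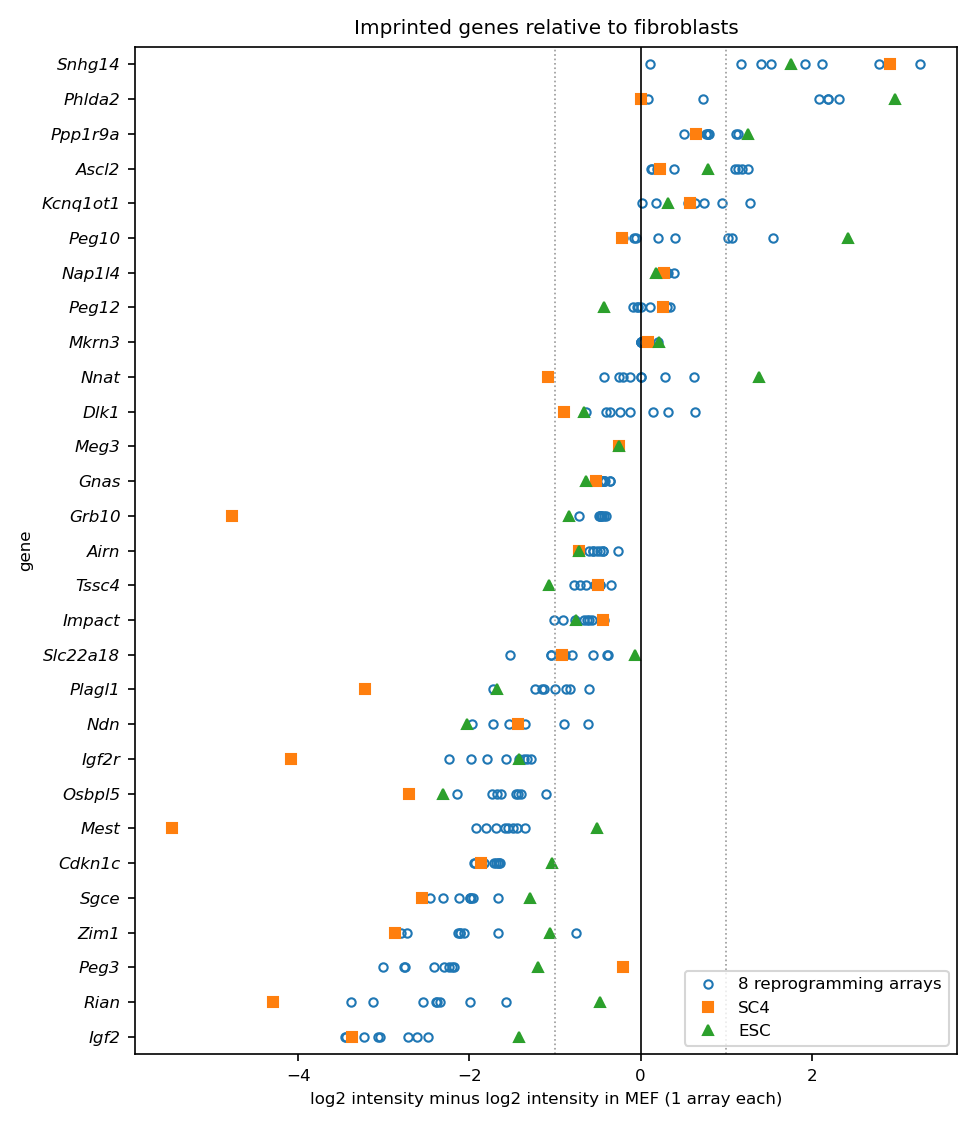
Log2 intensity minus that of the MEF array for each imprinted gene above the floor, with 1 point for each of the 8 reprogramming arrays and for the SC4 and ESC arrays. All reprogramming points of Igf2, Peg3, Rian, Sgce, Cdkn1c, Igf2r, Mest and Osbpl5 lie below -1, and the SC4 points of Peg3 (-0.20) and Mest (-5.47) lie far apart.

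Fibroblast markers moved in the same direction. Their summed intensity ran from 4989 to 12994 on the 8 reprogramming arrays, against 46029 in MEF, and 10 of the 12 markers were at least 2-fold lower on every reprogramming array. Lum, a fibroblast proteoglycan, was at the floor on 5 of these 8 arrays. In SC4 the sum was 1944, with 6 of the 12 markers above the floor, and in ESC it was 3612, with 9 above it. All 12 were at least 2-fold lower than MEF in both SC4 and ESC. The part of the fibroblast markers in the imprinted gene differences was not tested.

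The Dlk1-Dio3 cluster carries protein-coding genes on the paternal copy and, on the maternal copy, a chain of non-coding RNAs from Meg3 through Rian and Mirg that hosts a large group of miRNA genes. Rian ran from 188 through a median of 375 to 657 on the reprogramming arrays, against 1960 in MEF. It was 1409.7 in ESC and at the floor in SC4, at least 19.6-fold lower than MEF. Of 55 miRNA genes listed for the cluster, 41 had a probe set of their own. A probe set for a miRNA gene on a whole-transcript array mostly reads the precursor or host RNA and not the mature miRNA. Of the 41, 28 were above the floor in MEF, 19 in ESC, 11 on at least 1 reprogramming array and 5 in SC4. For 18 genes that were above the floor in MEF, all 8 reprogramming arrays lay at the floor.

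The 4 miRNA genes of the cluster with the highest MEF intensity are shown with the mature sequences held for them. Because they were chosen on MEF, a high MEF value in them is not a result. The sequences are from RefSeq (GRCm38.p6), 5′ to 3′, all on the plus strand of chromosome 12. Capitals mark the seed, bases 2 to 8. The 7 sequences have 7 different seeds, so no group with a shared seed forms among them.
mmu-miR-453: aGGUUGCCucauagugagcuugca
mmu-miR-329-5p: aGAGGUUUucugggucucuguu
mmu-miR-329-3p: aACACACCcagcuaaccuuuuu
mmu-miR-382-5p: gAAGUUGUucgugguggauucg
mmu-miR-382-3p: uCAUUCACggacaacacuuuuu
mmu-miR-377-5p: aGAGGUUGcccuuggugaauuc
mmu-miR-377-3p: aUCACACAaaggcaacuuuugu

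Mir453 had an intensity of 111 to 408 on the reprogramming arrays, 996 in ESC, 100 in SC4 and 1651 in MEF. Mir329 had 134 to 286 on the reprogramming arrays, 307 in ESC, 144 in SC4 and 685 in MEF. Mir382 did not exceed 128 on any reprogramming array, with 190 in ESC, 100 in SC4 and 583 in MEF. Mir377 lay at the floor in SC4 and throughout the reprogramming arrays, with 197 in ESC and 534 in MEF. After MEF, on which the 4 genes were chosen, ESC was the highest array for each. The highest reprogramming value was CD73- day 9 for Mir329 and Mir382 and CD73+ day 9 for Mir453. MEF was not the highest array for every miRNA gene of the list. Mir673 had 641 in unsorted day 9 cells and 488 in MEF, and Mir341 had 528 in ESC and 451 in MEF. Of the 29 miRNA genes above the floor on any array, 11 were at least 2-fold lower than MEF on every reprogramming array, against 5.78% of all genes. For 18 of the 29, all 8 reprogramming arrays lay at the floor, so these passed the filter only through the control arrays. The count of 11 is therefore partly set by the filter and is a description only.

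**Figure D3:**
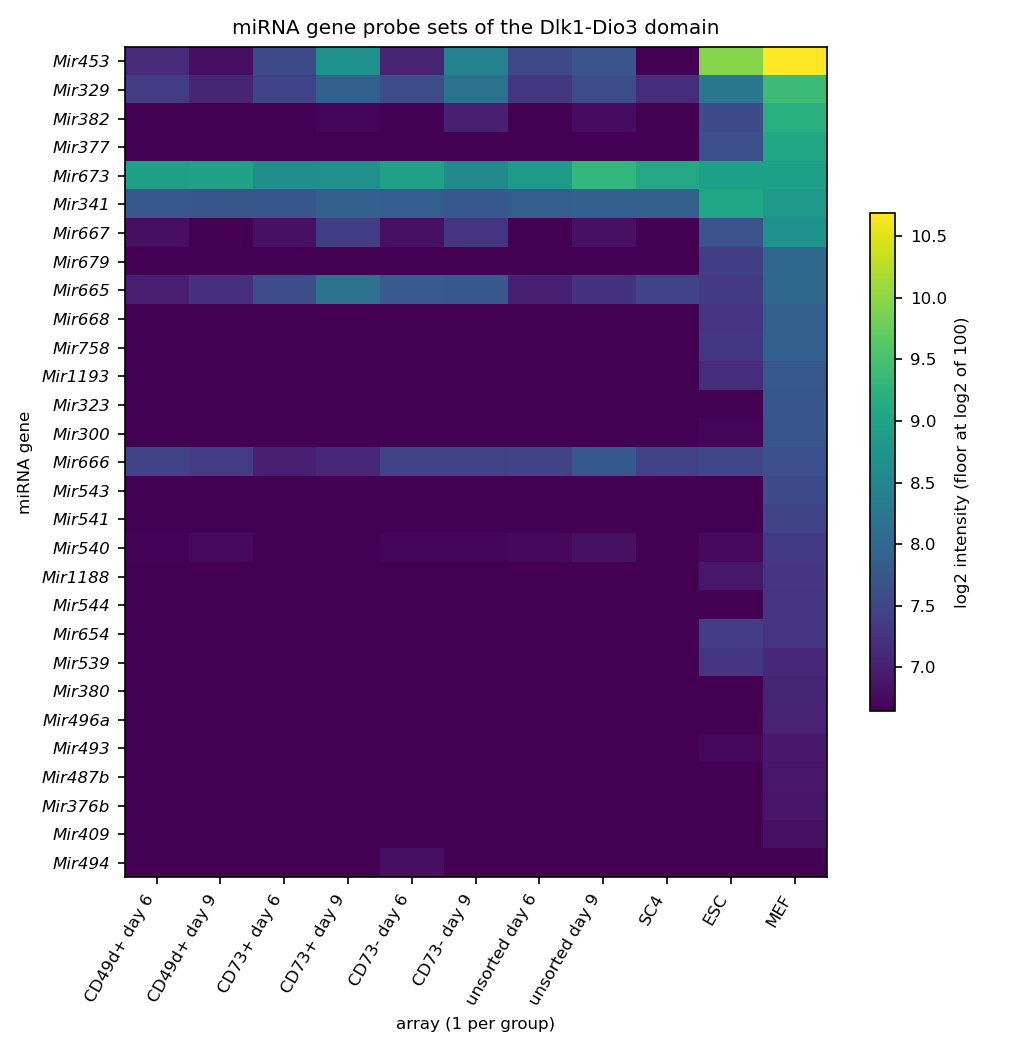
Intensity of the Dlk1-Dio3 miRNA genes that were above the floor on at least 1 array, by array, as a colour scale of log2 intensity. The MEF column is above the floor for 28 genes and the SC4 column for 5, and 11 genes rise above it on any of the 8 reprogramming arrays.

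In the partially reprogrammed line SC4, Mest, Grb10, Rian, Igf2r and Plagl1 were far below the fibroblast level while Peg3 was close to it. Of 29 genes, 12 (41.4%) were at least 2-fold lower in SC4 than in MEF, against 11.5% of all genes, and Snhg14 alone was at least 2-fold higher, where 11.0% of all genes were. The median difference over the 29 genes was -0.72 on the log2 scale, against 0 for all genes. SC4 is a single line measured once, so these values describe that line.

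Mest lay at the floor in SC4, at least 44.4-fold lower than MEF (4435) and at least 31.2-fold lower than ESC (3119). Grb10 had an intensity of 134 in SC4, 2053 in ESC and 3666 in MEF, a ratio of SC4 to MEF of 27.4-fold lower. Igf2r had 215 in SC4, 1360.1 in ESC and 3629 in MEF, 16.9-fold lower in SC4 than in MEF. Plagl1 had 119 in SC4, 347 in ESC and 1108 in MEF, 9.31-fold lower in SC4 than in MEF. The lowest reprogramming array was above the SC4 value for each of these 4 genes, at 1171 for Mest, 2220 for Grb10, 771 for Igf2r and 334 for Plagl1.

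Igf2 was 235 in SC4, within the reprogramming range of 222 to 435. Sgce (351) and Osbpl5 (116) were below the reprogramming arrays, and Cdkn1c (129) and Ndn (458) were inside their range. Nnat, a membrane proteolipid known from developing brain, was 107 in SC4, 590.5 in ESC and 226 in MEF. Peg3 went against the others, with 3730.2 in SC4, 1861 in ESC and 4290.4 in MEF. SC4 was thus only 1.15-fold below MEF for Peg3, where all 8 reprogramming arrays were 4.53-fold or more below MEF. Zim1, next to Peg3, was 112 in SC4, 392 in ESC and 818 in MEF.

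The promoters of Mest and Plagl1, both far lower in SC4 and both known to overlap imprinting control regions, are shown for the letters that ZFP57 binds. The windows are the 250 bases before the gene start in RefSeq (GRCm38.p6), 5′ to 3′ on the gene's strand. Capitals mark TGCCGC read on either strand. The Mest window is chr6:30737800-30738049 (+) and holds 2 matches. The Plagl1 window is chr10:13090582-13090831 (+) and holds 1. The windows of Grb10, Igf2r and Rian, which were also far lower in SC4, hold 0 and are not shown. Whether these windows reach a control region was not examined, so the 0 does not describe sites elsewhere at these loci.
Mest: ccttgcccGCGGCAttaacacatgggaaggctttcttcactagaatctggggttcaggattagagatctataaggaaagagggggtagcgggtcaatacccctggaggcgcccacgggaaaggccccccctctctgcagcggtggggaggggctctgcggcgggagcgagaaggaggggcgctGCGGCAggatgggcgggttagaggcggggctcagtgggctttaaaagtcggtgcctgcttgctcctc
Plagl1: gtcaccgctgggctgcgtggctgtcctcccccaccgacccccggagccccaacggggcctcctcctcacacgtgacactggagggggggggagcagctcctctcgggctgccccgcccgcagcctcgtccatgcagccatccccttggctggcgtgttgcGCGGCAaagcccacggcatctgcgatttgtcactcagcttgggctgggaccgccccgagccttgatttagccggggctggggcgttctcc

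TGCCGC, searched on both strands, was in the windows of 5 of the 31 listed imprinted genes with a promoter in the table (16.13%), against 2472 of 27025 genes (9.147%). The windows of the imprinted genes held a median of 10 CG pairs (0 to 40), against a median of 6 (0 to 56) for all genes. Where a gene had several starts, the window with the most CG pairs was taken. The windows of Peg3 and Usp29, which share a promoter on opposite strands, overlap and are not independent. A match is a description of these letters and does not show binding.

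In ESC, 10 of 29 imprinted genes (34.5%) were at least 2-fold lower than in MEF, against 11.9% of all genes, and 5 (17.2%) were at least 2-fold higher, against 12.0%. The lower genes were Cdkn1c, Igf2, Igf2r, Ndn, Osbpl5, Peg3, Plagl1, Sgce, Tssc4 and Zim1, and the higher ones Nnat, Peg10, Phlda2, Ppp1r9a and Snhg14. Peg10, a retrotransposon-derived gene needed for the placenta, was 2107 in ESC, against 392 in MEF. Phlda2, a pleckstrin homology protein that limits placental growth, was 785 in ESC and at the floor in MEF, a difference of at least 7.85-fold. Igf2 was 908 in ESC, above every reprogramming array (highest 435). ESC differed from MEF in both directions.

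Set against ESC, SC4 was at least 2-fold lower for 11 of 29 imprinted genes (37.9%), against 7.39% of all genes, and at least 2-fold higher for Peg3 and Snhg14 (6.9%), against 5.42%. The 11 lower genes were Grb10, Igf2, Igf2r, Mest, Nnat, Peg10, Phlda2, Plagl1, Rian, Sgce and Zim1. Peg3 lay at the 2-fold mark itself, 2.00-fold higher in SC4 than in ESC, and fell under it after quantile normalization or centring of the arrays. Snhg14 had 751 in SC4 and 337 in ESC. These comparisons share the ESC, SC4 and MEF arrays, so the counts are not independent of each other.

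The comparison that the sort was made for is that of poised cells with CD73- cells. The placental growth regulator Phlda2, the trophoblast transcription factor Ascl2, Peg10 and the Notch ligand relative Dlk1 were lower in poised cells, and Snhg14 and the transporter gene Slc22a18 were higher. These were 6 of the 28 imprinted genes tested (adjusted p under 0.05, limma with Benjamini-Hochberg adjustment over 13313 genes), of which 2 rose and 4 fell. The share of all genes called was 12.0% (7.16% higher, 4.85% lower). The median log2 difference was -0.16 over the imprinted genes and -0.01 over all genes tested. Of the 28, 13 had an unadjusted p under 0.05, as did 4056 of the 13313 genes. Of 15 paternally expressed genes tested 1 rose and 2 fell, and of 11 maternally expressed genes tested 1 rose and 2 fell, so neither parental class stood on only 1 side.

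**Figure D4:**
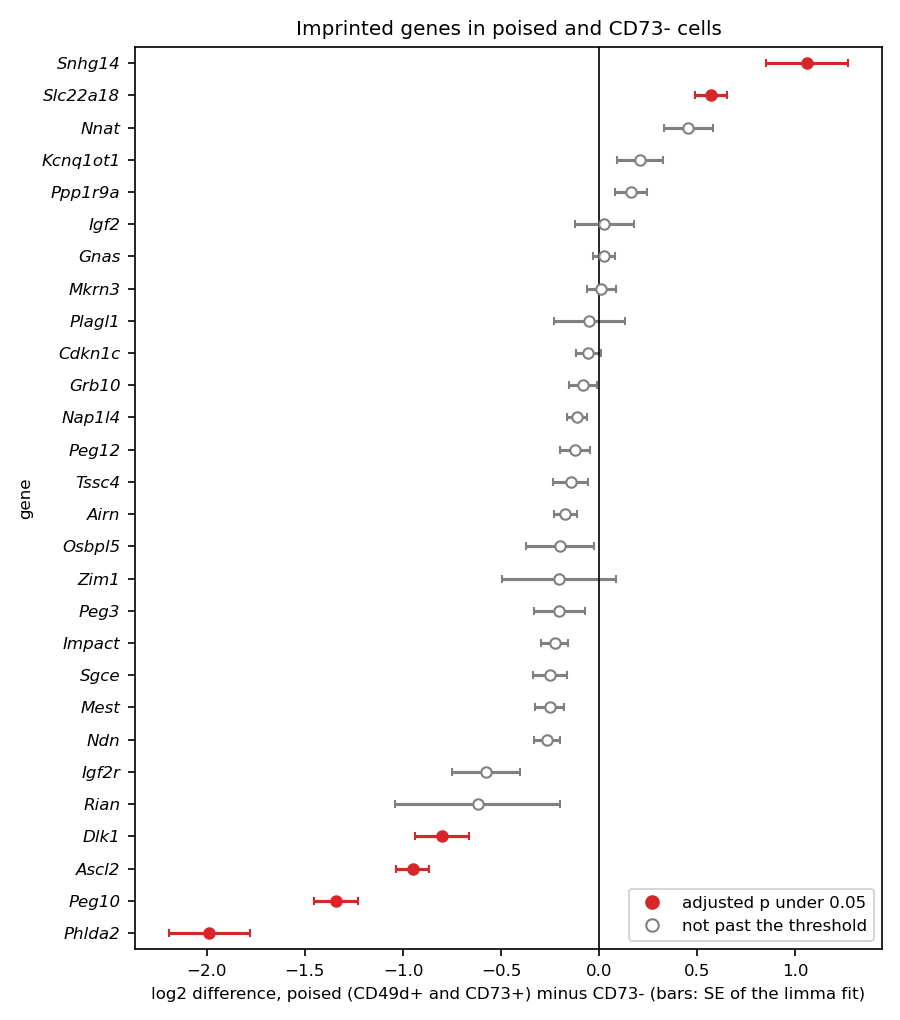
Log2 difference of poised cells (CD49d+ and CD73+ together) minus CD73- cells for the 28 tested imprinted genes, with bars for the standard error of the limma fit and filled points for genes with an adjusted p under 0.05. Phlda2 (-1.99), Peg10 (-1.34), Ascl2 (-0.95) and Dlk1 (-0.80) are the filled points on the lower side, and Slc22a18 (0.57) and Snhg14 (1.06) those on the higher side.

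The spread behind these tests is the disagreement between day 6 and day 9, which has 3 residual degrees of freedom. Whether each day had a culture of its own is not stated in the labels, and the p-values measure only how well the days agree. Leaving out an array changed the calls. The number of imprinted genes passing in poised minus CD73- was 0 without the CD73- day 6, unsorted day 6 or CD73- day 9 array, 1 without CD73+ day 9 and 2 without CD73+ day 6. Over all genes the calls fell as well, to 51 without CD73- day 6, 1 without unsorted day 6, 131 without CD73- day 9, 213 without CD73+ day 9 and 250 without CD73+ day 6, against 1599 with all arrays.

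Phlda2 and Ascl2, which lie in the Kcnq1 cluster and are both expressed from the maternal copy, moved together. Phlda2 read 100 (day 6) and 166 (day 9) on the CD49d+ arrays, 106 and 100 on the CD73+ arrays and 457 and 455 on the CD73- arrays, where the first value of each pair is day 6 here and below. All 4 poised arrays were below both CD73- arrays, and 2 of the poised arrays lay at the floor, so that the fitted difference may understate the real one. The fitted difference was -1.99 ± 0.206 on the log2 scale (SE), 3.96-fold lower, with an adjusted p of 0.00960 in limma. Ascl2 read 114 and 131 on the CD49d+ arrays, 110 and 109 on the CD73+ arrays and 228 and 220 on the CD73- arrays. The poised and CD73- arrays did not overlap, and the difference was -0.95 ± 0.0825 (SE), with an adjusted p of 0.00706 in limma. For these genes and those below, the share of all genes whose arrays separate in this way was not counted. The separation comes from the arrays that gave the calls and is a description only. Unsorted cells had 498 and 424 for Phlda2 and 238 and 215 for Ascl2, near the CD73- values.

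The promoters of Phlda2 and Ascl2 are shown because the genes moved together on the sorted arrays. Both are 250 bases before the start in RefSeq (GRCm38.p6), 5′ to 3′ on the gene's own minus strand, with CG pairs in capitals. The Phlda2 window, chr7:143502525-143502774, holds 21 CG pairs, and the Ascl2 window, chr7:142969265-142969514, holds 19, against the median of 6 for all genes. Neither holds TGCCGC on either strand.
Phlda2: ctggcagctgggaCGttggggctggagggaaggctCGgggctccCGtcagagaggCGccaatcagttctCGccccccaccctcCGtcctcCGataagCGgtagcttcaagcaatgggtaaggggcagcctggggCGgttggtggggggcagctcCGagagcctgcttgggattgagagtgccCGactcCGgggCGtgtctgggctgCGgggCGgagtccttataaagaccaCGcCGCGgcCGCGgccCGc
Ascl2: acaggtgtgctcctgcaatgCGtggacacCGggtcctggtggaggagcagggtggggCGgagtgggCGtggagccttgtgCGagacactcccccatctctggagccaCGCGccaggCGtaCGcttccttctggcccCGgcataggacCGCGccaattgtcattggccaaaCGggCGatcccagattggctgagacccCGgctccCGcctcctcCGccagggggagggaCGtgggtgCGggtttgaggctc

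Of the other genes of the Kcnq1 cluster, Slc22a18 passed, in the opposite direction. Slc22a18, an organic cation transporter relative beside Phlda2, read 156 and 195 on the CD49d+ arrays, 139 and 220.5 on the CD73+ arrays and 100 and 138 on the CD73- arrays. The lowest poised array lay just above the higher CD73- array, and the difference was 0.57 ± 0.0824 (SE), with an adjusted p of 0.0199 in limma. Unsorted cells had 165 and 219, near the poised values, and the CD73- day 6 array lay at the floor. CD73- minus unsorted was -0.69 ± 0.0952 (SE) and did not pass (adjusted p = 0.0539, limma). The non-coding RNA Kcnq1ot1, which silences its neighbours on the paternal copy, read 295 and 281 on the CD49d+ arrays, 367 and 462 on the CD73+ arrays and 280.1 and 317 on the CD73- arrays. Its difference of 0.21 ± 0.117 (SE) did not pass (adjusted p = 0.302, limma). Cdkn1c, Nap1l4, Osbpl5 and Tssc4 did not pass either.

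Peg10 read 372 and 340 on the CD49d+ arrays, 453 and 377 on the CD73+ arrays and 1149 and 820 on the CD73- arrays. The groups did not overlap, and the difference was -1.34 ± 0.113 (SE), 2.53-fold lower, with an adjusted p of 0.00656 in limma. Its neighbour Sgce, which shares a promoter region with Peg10 and is also expressed from the paternal copy, read 520.0 and 419 on the CD49d+ arrays, 475 and 377 on the CD73+ arrays and 533 and 525 on the CD73- arrays, and did not pass. Dlk1, a membrane protein of the Notch ligand family that marks immature cells, read 399.7 and 371 on the CD49d+ arrays, 304 and 358 on the CD73+ arrays and 525 and 735 on the CD73- arrays. It was 1.74-fold lower (-0.80 ± 0.136, SE, adjusted p = 0.0276, limma). Rian, from the same cluster as Dlk1, differed by -0.62 ± 0.420 (SE) and did not pass.

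Snhg14 read 435 and 378 on the CD49d+ arrays, 958 and 692 on the CD73+ arrays and 286 and 265 on the CD73- arrays. The 4 poised values were above both CD73- values, and the difference was 1.06 ± 0.208 (SE), 2.08-fold higher, with an adjusted p of 0.0373 in limma. By sort, CD73+ minus CD73- was 1.56 ± 0.240 (SE). CD49d+ minus CD73- was 0.56 ± 0.240 (SE) and did not pass (adjusted p = 0.195, limma). The pooled difference did not pass in limma without the filter (adjusted p = 0.0621) or without the day term (0.0882). Snhg14 was highest in CD73+ cells and SC4 (751), and lowest in unsorted day 9 cells (107) and MEF (at the floor). Ndn, Peg12 and Mkrn3 of the same cluster did not pass in poised minus CD73-.

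**Figure D5:**
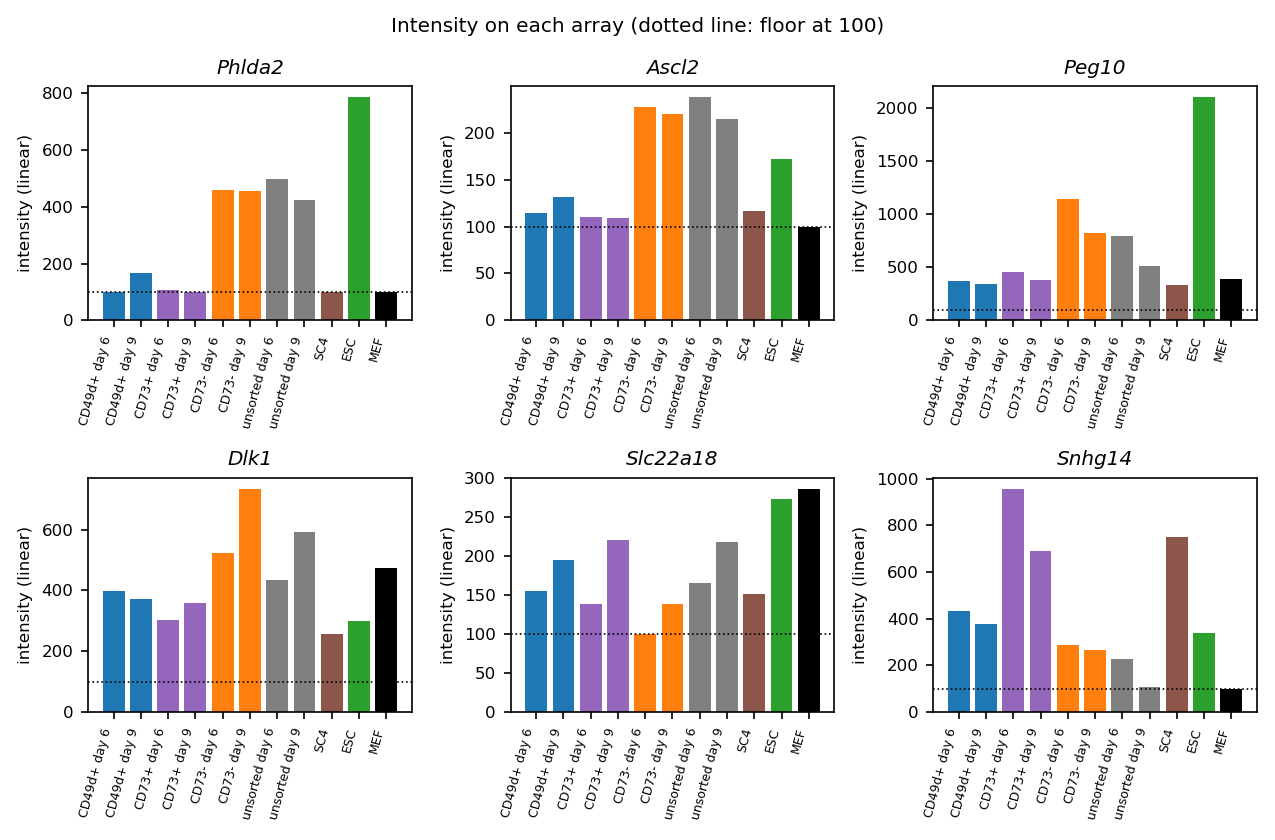
Intensity (linear axis) on each of the 11 arrays of the 6 imprinted genes that passed in poised minus CD73-, 1 bar per array, with a dotted line at the floor of 100. Phlda2, Ascl2, Peg10 and Dlk1 have all 4 poised bars below both CD73- bars, Snhg14 has them above, and Slc22a18 has its lowest poised bar (139) just above its higher CD73- bar (138). The share of all genes that separate in this way was not counted.

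Trophoblast markers are set beside these genes because Phlda2, Ascl2 and Peg10 are known from the placenta. Of 13 measured markers, 4 or 5 were above the floor on each reprogramming array. Cdx2, Eomes, Elf5, Tfap2c, Tpbpa and Plac1, which define trophoblast and its lineages, lay at the floor on all 8. Rhox6 (116) and Rhox9 (102) were above the floor on CD73- day 6 and on no other reprogramming array. The summed intensity of the list was 1758 to 2196 on the poised arrays and 2045 and 2278 on the CD73- arrays. Each marker at the floor adds 100 to that sum. Of 7 tested markers, 4 (57.1%) were called in poised minus CD73-, 2 higher and 2 lower, against 12.0% of all genes. Esx1 (-1.16, adjusted p = 0.0188) and Hand1 (-0.85, adjusted p = 0.0404) fell in poised cells, while Krt8 (0.43, adjusted p = 0.0130) and Gata3 (0.36, adjusted p = 0.0391) rose in the same limma fit. The fibroblast marker sums were 11214 and 7143 in CD49d+ cells, 6052 and 4989 in CD73+ cells, and 7274 and 9334 in CD73- cells, so the poised range spanned both sides of the CD73- range. Taken by sort, 10 of the 12 fibroblast markers were lower in CD73+ than in CD73- cells (median -0.90, 1 called higher and 2 lower), 7 of 12 were higher in CD49d+ than in CD73- cells (median 0.10) and all 12 were higher in CD49d+ than in CD73+ cells (median 0.78, none called). Of the other marker lists, Prrx1 (0.88), Sall4 (0.77), Ocln (0.98), Laptm5 (1.17), Tek (1.30) and Cldn5 (0.52) rose in poised cells, and Postn (-1.95), Col3a1 (-1.13), Utf1 (-1.06) and Krt19 (-0.42) fell, with adjusted p from 0.00786 to 0.0307 in limma. The part of any of these lists in the imprinted gene differences was not tested.

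Taken by sort, CD73+ cells differed from CD73- cells for 7 of 28 imprinted genes, 2 higher and 5 lower, where 8.00% of all genes were called (5.06% higher, 2.94% lower). Phlda2 (-2.15 ± 0.238, adjusted p = 0.0162), Ascl2 (-1.03 ± 0.0953, adjusted p = 0.0131), Peg10 (-1.23 ± 0.131, adjusted p = 0.0152) and Dlk1 (-0.91 ± 0.157, adjusted p = 0.0370) fell. Ndn also fell in CD73+ cells, reading 375 and 314 on the CD73+ arrays and 482 and 452 on the CD73- arrays (-0.45 ± 0.0763, adjusted p = 0.0365). Snhg14 (1.56 ± 0.240, adjusted p = 0.0302) and Slc22a18 (0.57 ± 0.0952, adjusted p = 0.0346) rose. Values after ± are standard errors from limma. Without the CD73+ or CD73- arrays of either day, or without either unsorted array, no gene of the list passed in this comparison, and of all genes 0 to 2 did. On the arrays scaled to a common median above the floor, 51.6% of the calls over all genes were higher in CD73+ cells, against 63.2% on the deposited values.

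CD49d+ cells differed from CD73- cells for 6 of 28 imprinted genes, 2 higher and 4 lower, where 13.3% of all genes were called (7.69% higher, 5.66% lower). Phlda2 (-1.83 ± 0.238, adjusted p = 0.0163), Ascl2 (-0.87 ± 0.0953, adjusted p = 0.0122) and Peg10 (-1.45 ± 0.131, adjusted p = 0.00875) fell, and Slc22a18 rose (0.57 ± 0.0952, adjusted p = 0.0270). Dlk1 (-0.69 ± 0.157, adjusted p = 0.05004) and Snhg14 (0.56 ± 0.240, adjusted p = 0.195), called in the pooled comparison, did not pass here in limma. Nnat had 347 and 276 in CD49d+ cells, against 167 and 196 in CD73- cells (0.77 ± 0.142, adjusted p = 0.0322). With the mean of its probe sets, the other of which was at the floor on 10 of the 11 arrays, the difference was 0.39 and did not pass (adjusted p = 0.0641), nor did it pass on the 6 sorted arrays (0.0594) or without the filter (0.0537). Impact, with 1679 and 1566 in CD49d+ cells against 2046 and 2087 in CD73- cells, passed narrowly (-0.35 ± 0.0794, adjusted p = 0.04996 in limma) and stayed past the threshold in only 2 of 14 alternative settings, whose adjusted p ran from 0.0460 to 0.187. The count was 0 without the CD73- day 6, unsorted day 6 or CD73- day 9 array, 1 without CD49d+ day 6, CD73+ day 6 or CD73+ day 9, and 2 without unsorted day 9. Over all genes 1777 were called, but 69, 1 and 111 without the first 3 of these arrays, 101, 274 and 350 without the next 3, and 601 without unsorted day 9.

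Both poised populations share the CD73- arrays, so their likeness to each other is not an independent result. Compared directly, CD49d+ and CD73+ cells differed for no imprinted gene (0 of 28 in limma, 10 with an unadjusted p under 0.05, as had 3212 of 13313 genes), where 0.0300% of all genes were called (0.00751% higher, 0.0225% lower). Zim1 had 117 and 123 in CD49d+ cells, against 189 and 483 in CD73+ cells, a difference of -1.33 ± 0.336 (SE) that did not pass (adjusted p = 0.103, limma). Snhg14 differed by -1.01 ± 0.240 (SE), also not passing (adjusted p = 0.0952, limma). After centring of the arrays 3 genes passed, Nnat, Snhg14 and Zim1.

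CD73- cells differed from unsorted cells for 1 imprinted gene, Ndn, which was lower, where 1.02% of all genes were called (0.210% higher, 0.811% lower). Ndn had 482 and 452 in CD73- cells, against 804 and 663 in unsorted cells (-0.64 ± 0.0763, SE, adjusted p = 0.0426, limma). It no longer passed when any of the 8 arrays was left out, where 0 to 21 of all genes did. Beside it, all 9 tested epithelial markers (median -0.46, 3 called lower) and 11 of 12 fibroblast markers (median -0.38, none called) were lower in CD73- than in unsorted cells, and their part in the Ndn difference was not tested. For day 9 against day 6, no imprinted gene passed in limma (7 with an unadjusted p under 0.05) and 0% of all genes did (1545 with an unadjusted p under 0.05). Differences between the days ran from -0.51 for Peg3 to 0.49 for Zim1 on the log2 scale. For this contrast the spread is the disagreement among the 4 populations, which are not replicates of a day.

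Imprinted genes outside the list of 39 were looked at as well. Of 43 further imprinted genes, 31 were tested, of which 4 rose and 2 fell in poised minus CD73- cells, with a median of 0.01 on the log2 scale, against 7.16% and 4.85% of all genes. Cobl, an actin nucleator, read 893 and 629 on the CD49d+ arrays, 712 and 848 on the CD73+ arrays and 176 and 133 on the CD73- arrays (2.32 ± 0.181, SE, adjusted p = 0.00598, limma). The serotonin receptor gene Htr2a (2.18 ± 0.184, SE, adjusted p = 0.00649), Zdbf2 (1.15 ± 0.108, SE, adjusted p = 0.00796) and Begain (0.89 ± 0.165, SE, adjusted p = 0.0331) also rose in the limma fit. The amino acid transporter gene Slc38a4 (-0.73 ± 0.102, SE, adjusted p = 0.0183) and Jade1 (-0.37 ± 0.0716, SE, adjusted p = 0.0364) fell. Against MEF, 3 of the 33 further genes above the floor were at least 2-fold lower on every reprogramming array and 0 were higher, against 5.78% and 4.89% of all genes.

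Of 23 genes that maintain imprints or set DNA methylation, 19 were tested, and 2 rose and 2 fell in poised minus CD73- cells, where 12.0% of all genes were called. Zfp57, which encodes the protein that protects methylated control regions, read 1818 and 2159 on the CD49d+ arrays, 1686 and 2404 on the CD73+ arrays and 366 and 889 on the CD73- arrays. It was 3.50-fold higher (1.81 ± 0.233, SE, adjusted p = 0.0153, limma), and it had 3698 in SC4, 2699 in ESC and 982 in MEF. Tet2, an enzyme that oxidises 5-methylcytosine, read 2545 and 2502 on the CD49d+ arrays, 2565 and 3044 on the CD73+ arrays and 891 and 1140.4 on the CD73- arrays (1.40 ± 0.0930, SE, adjusted p = 0.00476, limma). Hells, a chromatin remodeller needed for DNA methylation (-0.44, adjusted p = 0.0482), and Zfp568, which silences a placental Igf2 transcript (-0.44, adjusted p = 0.0432), fell in limma. Against MEF, 5 of the 23 were at least 2-fold higher on every reprogramming array and none were lower, against 4.89% and 5.78% of all genes. At least 2-fold higher than MEF were 13 of the 23 in ESC, against 12.0% of all genes, and 10 in SC4, against 11.0%. Dnmt3l, Zfp42, Dppa3 and Ctcfl were above the floor in ESC alone, so they passed the filter only through that array. Dnmt3l (1357 in ESC) and Zfp42 (1528 in ESC) are among the 13. The ESC count is therefore partly set by the filter and is a description only.

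The genes that work with Igf2 were mostly below the fibroblast level. Of 16 Igf2 partners above the floor, 8 were at least 2-fold lower than MEF on every reprogramming array, against 5.78% of all genes. In ESC 11 were at least 2-fold lower, against 11.9% of all genes, and in SC4 9 were, against 11.5%. In poised minus CD73- cells 2 of the 16 rose and 1 fell, where 12.0% of all genes were called. Igfbp3, a binding protein of the growth factors, read 648 and 669.9 on the CD49d+ arrays, 362 and 722 on the CD73+ arrays and 208 and 392 on the CD73- arrays (1.02 ± 0.222, SE, adjusted p = 0.0479, limma). Irs1, the adaptor below the insulin and IGF receptors, rose (0.76 ± 0.134, SE, adjusted p = 0.0300), and Grb14, an adaptor related to Grb10, fell (-1.02 ± 0.120, SE, adjusted p = 0.0124). Igf2 itself differed by 0.03 ± 0.150 (SE) and did not pass (adjusted p = 0.957, limma). That value averages sorts on opposite sides, 0.36 ± 0.173 (SE) for CD49d+ minus CD73- and -0.31 ± 0.173 (SE) for CD73+ minus CD73-. Neither passed, nor did CD49d+ minus CD73+ (0.67 ± 0.173, SE, adjusted p = 0.106, limma).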

How the data were processed

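Total RNA was measured on Affymetrix whole-transcript arrays in 11 samples, 1 per group. The deposited values are linear intensities for 41345 probe sets with a floor of 100, made by the authors with Partek, per the submitters' processing notes, which give no version. Summarisation, background correction and scaling were not given in the sources used here. Probe sets were named from GEO's platform annotation (1 symbol for 23521, several for 1814, none for 16010), with symbols updated in a RefSeq table (GRCm38.p6). Genes above the floor on at least 1 array (14301) were kept. Those above it on any reprogramming array (13313) were fitted on log2 intensity with limma 3.58.1 (R 4.3.3, lmFit and eBayes, terms for population and day, prior degrees of freedom 2.12), with Benjamini-Hochberg adjustment and calls at adjusted p under 0.05. The same steps were tested on simulated data. Differences between single arrays have no test and were counted at 2-fold. The number of arrays limits the precision.

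The imprinted genes and all other lists were chosen with earlier results of these data known. Every imprinted gene that passed is named, and those at 1 log2 unit or more that did not pass. Of the other lists, genes passing in poised minus CD73- are named, at most 6 per list. Alternatives were quantile normalization, centring of arrays, no filter, the mean of probe sets, no day term, the 6 sorted arrays only, and leaving out each array.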

Additional observations from a re-analysis of the deposited data

Results flagged for a closer look

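Plagl1 moved in opposite directions on the 2 days. At day 6 it was higher in both poised populations than in CD73- cells, by 0.40 in CD49d+ and 0.07 in CD73+ cells on the log2 scale. At day 9 it was lower in both, by -0.40 in CD49d+ and -0.28 in CD73+ cells. The poised minus CD73- difference at day 9 was lower than that at day 6 by -0.57 (log2). This difference between days was not tested, since each day has 1 array per population.

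Some probe sets annotated jointly to Rtl1 and a miRNA gene, and assigned to no gene in the comparisons, were higher on a reprogramming array than on any of SC4, ESC and MEF. The highest reprogramming array was 4.02-fold above the highest control for the probe set annotated to Rtl1 and Mir431, at least 3.50-fold for Rtl1 and Mir434, whose 3 controls lay at the floor, 2.26-fold for Rtl1 and Mir432, and 5.55-fold for Rtl1 and Mir3071. The last of these read 568 and 533 on the CD49d+ arrays, 524 and 659 on the CD73+ arrays and 153 and 198 on the CD73- arrays, with 264 and 347 in unsorted cells, 114 in SC4, 116 in ESC and 119 in MEF. All 4 poised arrays were above both CD73- arrays for the Mir431, Mir434, Mir432 and Mir3071 probe sets, and no test was run on them. They were picked for a high reprogramming array, and the share of all probe sets that separate in this way was not counted. The Rtl1 probe set with Mir433 and Mir127 was highest in MEF (323, against at most 164 on a reprogramming array). That with Mir136 and Mir3071 was above the floor only on CD49d+ day 6 (117).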

How the results depend on the processing

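No paired analysis was possible because the labels give no replicate numbers and each group has 1 array, beyond the day term, which matches the populations by day. For poised minus CD73-, 6 imprinted genes passed, 3 without the day term, and 0 to 6 when an array was left out. For CD73+ minus CD73- 7 passed, but 3 without the filter, 2 without the day term, 4 on the 6 sorted arrays and 0 to 6 leaving out an array. For CD49d+ minus CD73- 6 passed, but 3 on the 6 sorted arrays and 0 to 5 leaving out an array. For CD49d+ minus CD73+ 0 passed, 3 after centring and 0 leaving out any array. For CD73- minus unsorted 1 passed, 2 after quantile normalization, 3 after centring, 0 without the filter, 0 without the day term and 0 leaving out any array. For day 9 minus day 6 0 passed, 2 after centring (Peg3 and Slc22a18) and 0 leaving out any array. The 8 genes lower than MEF on every reprogramming array numbered 8 to 9 leaving out an array, and the 0 higher genes 0 to 1. The 2 genes higher in SC4 than ESC numbered 1 after quantile normalization and 1 after centring. The cause of these shifts was not tested.

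Over all genes, calls in poised minus CD73- numbered 1599 on the deposited values and 994 without the filter, and 1 to 1775 when an array was left out. The share of higher calls in CD49d+ minus CD73+ was 25% on the deposited values, 44.1% after quantile normalization and 60.5% after centring, and in CD73- minus unsorted 20.6% and, after quantile normalization, 42.7%. Centring moved the median of all genes by -0.19 for reprogramming arrays minus MEF, -0.15 for SC4 minus MEF and -0.11 for SC4 minus ESC. Of 119 values of 20 single-gene results under settings other than leaving out an array, 92 stayed past the threshold. Of 160 values leaving out an array 37 did, and 0 turned direction. Arrays at the floor give only a bound, and a signal over background is not given, which limits the dim genes Ascl2, Phlda2 and Slc22a18.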

Other observations

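Imprinted genes covered only by probe sets annotated to several genes also varied between the arrays. The probe set annotated to H19 and Mir675 had 566 and 320.2 in CD49d+ cells, 116 and 114 in CD73+ cells, 318 and 470.3 in CD73- cells, and 584 and 1027 in unsorted cells at day 6 and day 9. It was at the floor in SC4, 1254 in ESC and 5906 in MEF. All reprogramming arrays were thus below the fibroblast value, as was Igf2, the neighbour of H19, and the CD73+ arrays were the lowest of them.

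The brighter probe set annotated to Snrpn and Snurf read 2549.8 and 2675 on the CD49d+ arrays, 1789.7 and 1676 on the CD73+ arrays and 1144 and 985 on the CD73- arrays. It had 4896 in SC4, 2886 in ESC and 1012 in MEF. Snhg14, which continues from the Snrpn locus, was likewise higher on all poised than on both CD73- arrays and was higher in SC4 than in ESC and MEF. The probe set annotated to Meg3 and Mir770 had 179 to 303 on the reprogramming arrays, 172 in SC4, 659 in ESC and 1242 in MEF.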
